A study of Mus musculus with 7 samples.

Results

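The Hox cluster genes are the mouse homeobox genes that lie side by side in the HoxA, HoxB, HoxC and HoxD clusters, and 38 of them were examined here. Each member was given the merged H3K27ac peaks that overlapped its gene body or the 5 kb on either side of it. Of the 66841 merged peaks, 22 met this rule, and they fell to 13 of the 38 genes. H3K27ac, the acetylated lysine 27 of histone H3 that marks promoters and enhancers in use, had been profiled by ChIP-seq in A2lox-NeuroD1 cells, made from the mouse embryonic stem cell line A2Lox, in which doxycycline switches on an HA-tagged NeuroD1 transgene. Libraries came from cells without doxycycline (0 h) and from cells given 500 ng/ml of it for 12 h or 48 h, with replicates R1 and R2 at each time. All libraries were of this 1 line, grown in serum and LIF and taken off their feeder fibroblasts before the experiment, and a 48 h control without doxycycline was not analysed here, so time in culture and doxycycline cannot be told apart.

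Hox genes encode homeodomain transcription factors that give body segments their identity along the axis from head to tail. Their order along each cluster follows the order of their use: genes of the low paralogue groups act early and in the hindbrain, and those of the high groups act later and towards the tail. In embryonic stem cells the clusters are held by Polycomb complexes, which place methyl groups on the same lysine 27 that H3K27ac occupies. Retinoic acid, Cdx factors and FGF and Wnt signals open them in order during differentiation, and Pbx and Meis proteins bind DNA together with Hox proteins. NeuroD1 is a basic helix-loop-helix factor of neurons and binds E-boxes, which have the letters CANNTG. The study asked how H3K27ac changes after this factor is induced.

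Peaks were numbered within each cluster by position, from HoxA-1 to HoxA-10, HoxB-1 to HoxB-8 and HoxC-1 to HoxC-4. The 6 peaks with a gain relative to 0 h at either time are shown by the 300 bases around their centres, since the gains rest on them. These stretches are chr11:96189851-96190150, chr11:96341564-96341863, chr11:96349614-96349913, chr11:96352485-96352784, chr15:102920231-102920530 and chr15:103007738-103008037, given on the + strand of GRCm38 (mm10), with E-boxes in capitals.
HoxB-1: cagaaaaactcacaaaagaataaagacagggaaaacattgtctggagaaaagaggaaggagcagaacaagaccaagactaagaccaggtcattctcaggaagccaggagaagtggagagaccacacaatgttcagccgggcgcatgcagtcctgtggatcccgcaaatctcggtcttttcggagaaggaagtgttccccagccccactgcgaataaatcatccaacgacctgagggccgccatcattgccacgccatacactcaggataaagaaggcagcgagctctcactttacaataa
HoxB-5: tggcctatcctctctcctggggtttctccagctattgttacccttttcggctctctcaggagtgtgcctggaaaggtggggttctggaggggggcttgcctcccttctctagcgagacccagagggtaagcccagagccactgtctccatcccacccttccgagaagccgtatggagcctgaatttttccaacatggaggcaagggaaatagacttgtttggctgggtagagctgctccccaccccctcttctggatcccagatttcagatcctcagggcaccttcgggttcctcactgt
HoxB-6: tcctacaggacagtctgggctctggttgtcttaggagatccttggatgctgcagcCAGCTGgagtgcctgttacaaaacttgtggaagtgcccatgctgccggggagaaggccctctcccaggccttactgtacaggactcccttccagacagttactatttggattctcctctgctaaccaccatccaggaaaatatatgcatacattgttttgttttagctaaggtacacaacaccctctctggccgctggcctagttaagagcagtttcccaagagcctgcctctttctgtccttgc
HoxB-7: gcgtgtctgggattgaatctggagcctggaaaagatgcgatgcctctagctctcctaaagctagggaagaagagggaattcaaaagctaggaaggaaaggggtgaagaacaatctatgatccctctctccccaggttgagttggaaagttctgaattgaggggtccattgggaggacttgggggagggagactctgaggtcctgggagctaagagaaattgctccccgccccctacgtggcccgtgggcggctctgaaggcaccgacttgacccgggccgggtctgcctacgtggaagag
HoxC-1: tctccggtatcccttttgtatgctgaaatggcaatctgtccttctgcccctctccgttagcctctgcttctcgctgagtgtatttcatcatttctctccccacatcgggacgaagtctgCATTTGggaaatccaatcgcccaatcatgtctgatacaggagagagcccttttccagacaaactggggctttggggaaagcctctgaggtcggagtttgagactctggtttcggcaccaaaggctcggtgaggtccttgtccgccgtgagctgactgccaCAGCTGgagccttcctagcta
HoxC-4: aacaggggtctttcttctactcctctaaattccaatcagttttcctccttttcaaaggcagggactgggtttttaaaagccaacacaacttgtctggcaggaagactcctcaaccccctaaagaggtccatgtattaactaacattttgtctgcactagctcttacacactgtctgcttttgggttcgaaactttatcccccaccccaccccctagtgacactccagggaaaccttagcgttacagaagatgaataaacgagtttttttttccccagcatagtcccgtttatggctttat
HoxB-6 held 1 E-box in this stretch and HoxC-1 held 2, and the letters were not found in the windows of HoxB-1, HoxB-5, HoxB-7 and HoxC-4. Such a match describes the sequence only.

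The windows of 18 Hox peaks had the full 300 bases, and 7 of these 18 held an E-box, against 74.7% of 58252 windows of that length over all merged peaks. Of the 15494 such windows at promoter peaks, which lie within 2 kb of the start of a protein-coding transcript, 65.4% held one. The form CAGATG, preferred by NeuroD factors, was found in 1 of the 18 full Hox windows and in 18.1% of all windows. That was the window of HoxA-1, which had 2 copies among its 4 E-boxes. The shorter window of HoxB-3, of 285 bases, also held 1 copy. The letters TGATNNAT, a site of Hox proteins with Pbx, stood in 3 Hox windows (HoxA-3, HoxA-6 and HoxB-1) and in 7.57% of all windows. No Hox window held the Cdx site TTTATNA, which 12.3% of all windows did, or a direct repeat of AGGTCA with a spacer of 2 or 5 bases, the sites of retinoic acid receptors, which 0.0155% and 0.0189% of all windows did. Both strands were searched, and CAGATG is also counted as an E-box.

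The 4 clusters differed in how much of them lay in merged peaks. HoxA, on chromosome 6 from 52162417 to 52260880, had 10 peaks at 6 of its 10 members. HoxB, on chromosome 11 from 96194316 to 96368256, had 8 peaks at 4 of 10 members, and HoxC, on chromosome 15 from 102921103 to 103036852, had 4 peaks at 3 of 9. No peak lay in the windows of the 9 HoxD genes (chromosome 2, 74668310 to 74765142), and the nearest merged peak was 60338 to 118035 bp from each of them. Among all 21951 protein-coding genes of the annotation, 70.1% had a peak in the same window. Peaks covered 7.11% of the HoxA span, 5.19% of HoxB, 0.944% of HoxC and 0% of HoxD.

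More of the anterior than of the posterior genes carried a peak, a count given without a test. A peak was found at 6 of 11 anterior genes (paralogue groups 1 to 4), 5 of 11 central genes (groups 5 to 8) and 2 of 16 posterior genes (groups 9 to 13). With groups 1 to 3 as anterior and 10 to 13 as posterior, the counts were 4 of 7 and 2 of 12. The anterior genes with a peak were Hoxa2 (3 peaks), Hoxa3 (8), Hoxa4 (2), Hoxb2 (3), Hoxb3 (4) and Hoxb4 (1). These genes pattern the hindbrain, the neck and the nerves that arise there. The central genes were Hoxa5, Hoxa6 and Hoxa7 with 1 peak each and Hoxc5 and Hoxc6 with 2, and the posterior genes were Hoxb13 with 3 and Hoxc13 with 2.

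The 25 members without a merged peak were Hoxa9, Hoxa10, Hoxa11, Hoxa13, Hoxb1, Hoxb5, Hoxb6, Hoxb7, Hoxb8, Hoxb9, Hoxc4, Hoxc8, Hoxc9, Hoxc10, Hoxc11, Hoxc12 and all of Hoxd1, Hoxd3, Hoxd4, Hoxd8, Hoxd9, Hoxd10, Hoxd11, Hoxd12 and Hoxd13. Hoxb1, an early hindbrain gene, was the anterior gene of HoxB without one, and its nearest peak lay 10825 bp away. Hoxc8 missed the window narrowly, with a peak 5310 bp away, as did Hoxa9 with 5951 bp. A gene without a merged peak has no count in the deposited table, so its level below the calling limit is not known.

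**Figure D1:**
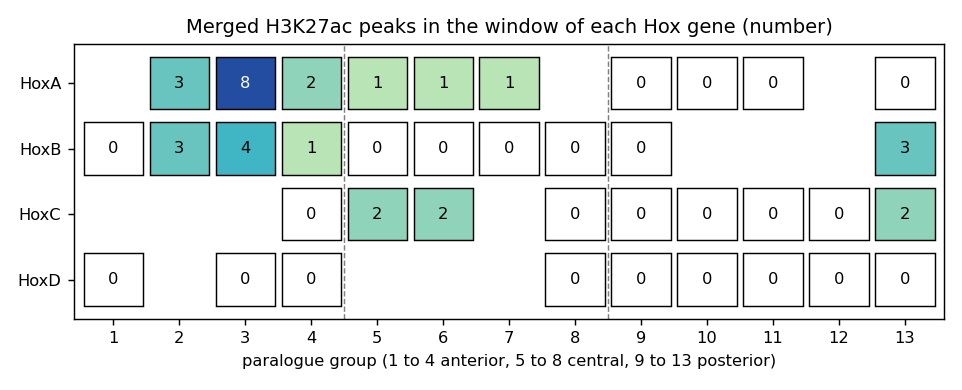
Number of merged H3K27ac peaks in the window (gene body and 5 kb on either side) of each of the 38 Hox genes, by cluster (rows) and paralogue group (columns). White boxes are the 25 genes without a peak, which include all 9 HoxD genes, and dashed lines part the anterior, central and posterior groups.

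Neighbouring genes share peaks, and the values of such genes are not independent. HoxA-9 served Hoxa3, Hoxa5 and Hoxa6, and both HoxC-3 and HoxC-4 served Hoxc5 and Hoxc6. HoxB-6 and HoxB-7 counted for both Hoxb2 and Hoxb3, and HoxB-4 for both Hoxb3 and Hoxb4. The annotated body of Hoxa3 runs from 52169062 to 52213336 and takes in Hoxa4, Hoxa5 and Hoxa6. That of Hoxc5 runs from 102967443 to 103017429 and takes in Hoxc6, Hoxc8, Hoxc9 and part of Hoxc10. The values of Hoxa3 and Hoxc5 thus rest on wide windows. HoxA-1 lay outside the body of Hoxa2 on its 3′ side and overlapped the noncoding RNA Hotairm1, so sums over HoxA are given with and without it. HoxB-6, HoxB-7 and HoxB-8 overlapped Hoxb3os, and ChIP reads carry no strand that would part Hoxb2 from this antisense RNA.

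Counts below are scaled, meaning that reads were divided by the library's total in merged peaks (6283103 to 8112895 reads) and multiplied by the mean of the totals. Over all peaks the replicates were close at 0 h and 12 h and further apart at 48 h, where their chi-square per degree of freedom was 5.54, against 1.79 and 1.42. This gap was wide at the Hox peaks, where 48 h R1 was the highest library at 12 of 22, against 22.6% of all merged peaks. Of the 13 Hox peaks with a mean scaled count of at least 20, 11 were over 1.5 times higher in 48 h R1 than in 48 h R2, which was true of 11.4% of all merged peaks at that level and of 20.8% of promoter peaks. The genes of pluripotent cells, all 11 of which had peaks, summed to 27273 and 27615 scaled counts at 0 h, to 17929 in 48 h R1 and to 23233 in 48 h R2. Calls of Hox peaks at 48 h are therefore given with and without R1, and the part of this difference between the libraries in them was not tested.

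At 12 h relative to 0 h, 2 of the 22 Hox peaks gained H3K27ac (HoxB-1 and HoxC-4) and 1 lost it (HoxA-1), where 9.93% of all merged peaks gained and 6.03% lost (edgeR's quasi-likelihood test, adjusted p under 0.05 over all 66841 peaks). With any 1 of the 4 libraries left out, HoxC-4 alone was called. At 48 h relative to 0 h, 4 Hox peaks gained (HoxB-5, HoxB-6, HoxB-7 and HoxC-1) against 8.56% of all peaks. No Hox peak lost H3K27ac at 48 h by edgeR, where 5.45% of all peaks did, and at an unadjusted p under 0.05 the count of losses was also 0 by edgeR and by DESeq2, while 7 and 6 peaks were higher. Without 48 h R1 the gains were HoxB-5 and HoxC-1, without 0 h R1 HoxB-5 alone, without 0 h R2 HoxC-1 alone, and without 48 h R2 there were 9. From 12 h to 48 h, 11 Hox peaks gained and 3 lost, against 10.7% and 8.43% of all peaks. Both 48 h libraries were above the other 4 at 6 Hox peaks (HoxA-1, HoxB-5 to HoxB-8 and HoxC-1), against 13.5% of all peaks, and both 12 h libraries were below the other 4 at 7, against 18.4%.

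The count from 12 h to 48 h leaned on the libraries as well. It was 7 without 48 h R1 (4 gained and 3 lost), 15 without 48 h R2, 2 without 12 h R1 and 4 without 12 h R2. DESeq2 called 1, 0 and 4 Hox peaks at 12 h relative to 0 h, at 48 h relative to 0 h and from 12 h to 48 h. It gave no adjusted p for 8, 5 and 11 of the 22. Over all 66841 merged peaks it called 5293, 4622 and 7465. With library totals, 62.2% of all called peaks were gains at 12 h and 61.1% were at 48 h, and with TMM factors 74.2% and 70.5%. The labels do not say whether R1 and R2 were separate cultures, so p-values measure the spread between these libraries, which may be technical. An exact permutation test of 2 libraries against 2 cannot go below p = 0.33. In bulk ChIP-seq, fewer cells with the mark and less mark per cell cannot be told apart.

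**Figure D2:**
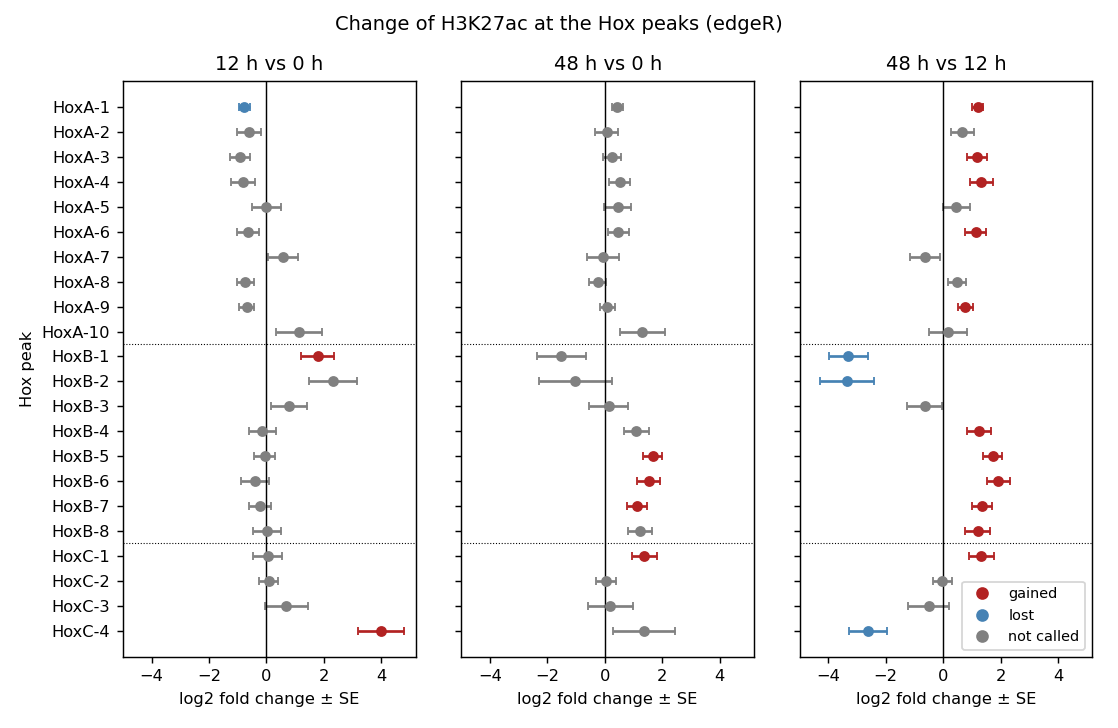
Change of H3K27ac at each of the 22 Hox peaks, as the log2 fold change of edgeR with its standard error, for the 3 pairs of time points. Red points gained and blue points lost H3K27ac at an adjusted p under 0.05, and grey points were not called. The 5 peaks from HoxB-4 to HoxB-8 lie between 1.10 and 1.67 at 48 h vs 0 h.

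The anterior end of HoxB, around Hoxb4, Hoxb3 and Hoxb2, held 3 of the 4 gains at 48 h. HoxB-5 is a peak of 2241 bp in the body of Hoxb3, over an exon but no coding sequence, and centred 2056 bp before the nearest start site of the gene. Hoxb3 shapes the hindbrain segments around the ear. HoxB-5 had 56.4 and 46.7 scaled counts in 0 h R1 and R2, 54.7 and 45.1 at 12 h, and 244 and 89.4 at 48 h. Both 48 h libraries lay above the other 4, with R1 2.73 times as high as R2. The gain at 48 h was 1.67 ± 0.33 on the log2 scale (SE, n = 2 libraries a time point, edgeR adjusted p = 0.00124), and 0.79 without 48 h R1 (adjusted p = 0.0167). At 12 h it differed from 0 h by -0.05 ± 0.37 (adjusted p = 0.934).

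HoxB-7 spans coding sequence of Hoxb2, which acts in the facial nerve region of the hindbrain. Its scaled counts were 60.5 and 57.3 in the 0 h libraries, 52.5 and 47.8 at 12 h, and 199 and 62.8 at 48 h. Here 48 h R2 was barely above the 0 h libraries and R1 was 3.17 times as high as R2. The gain at 48 h of 1.12 ± 0.35 (edgeR adjusted p = 0.0312) fell to 0.09 without 48 h R1 (adjusted p = 0.863). HoxB-6, between Hoxb3 and Hoxb2 and centred 1868 bp before the start of Hoxb2, had 17.4 and 13.8 scaled counts in the 0 h libraries, 10.7 and 12.9 at 12 h, and 63.3 and 29.2 at 48 h. Both 48 h libraries were the highest, and the gain was 1.53 ± 0.39 (adjusted p = 0.0101), or 0.90 without 48 h R1 (adjusted p = 0.132).

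At the outer peaks of this stretch 48 h R1 was again the highest library. HoxB-4, over coding sequence of Hoxb4, had 28.7 and 12.7 scaled counts in the 0 h libraries, 17.2 and 20.2 at 12 h, and 67.7 and 24.1 at 48 h. Its 48 h R2 library lay within the range of 0 h, and its difference at 48 h of 1.10 ± 0.42 was not called (edgeR adjusted p = 0.0887). HoxB-8, beyond the 3′ end of Hoxb2, had 12.3 and 18.0 in the 0 h libraries, 16.1 and 14.7 at 12 h, and 53.3 and 19.8 at 48 h, with a difference of 1.22 ± 0.43 at 48 h (adjusted p = 0.059). From 12 h to 48 h all 5 peaks from HoxB-4 to HoxB-8 gained, by 1.20 to 1.92 on the log2 scale. Without 48 h R1, HoxB-5 and HoxB-6 were still called there, and HoxB-4, HoxB-7 and HoxB-8 were not.

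Summed over HoxB-4 to HoxB-8, the scaled counts were 175 and 149 in the 0 h libraries, 151 and 141 at 12 h, and 627 and 225 at 48 h. Those of 12 h reached into the range of the 0 h libraries, and both 48 h libraries were above them. The 48 h R1 library stood 1.95 above the 0 h mean on the log2 scale and 48 h R2 0.48 above it. The direction at 48 h was the same with TMM factors, DESeq2 size factors and an offset on the GC content of the peaks, where the median log2 fold change of these 5 peaks was 1.31, 1.34 and 1.32, against 1.22 with library totals. With the GC offset all 5 were called at 48 h, and with DESeq2 0 of them were, with adjusted p of 0.0506 for HoxB-6 and 0.061 for HoxB-5. Over all peaks, 13278 of 66783 were called at 48 h with the GC offset and 4622 of 66841 with DESeq2.

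**Figure D3:**
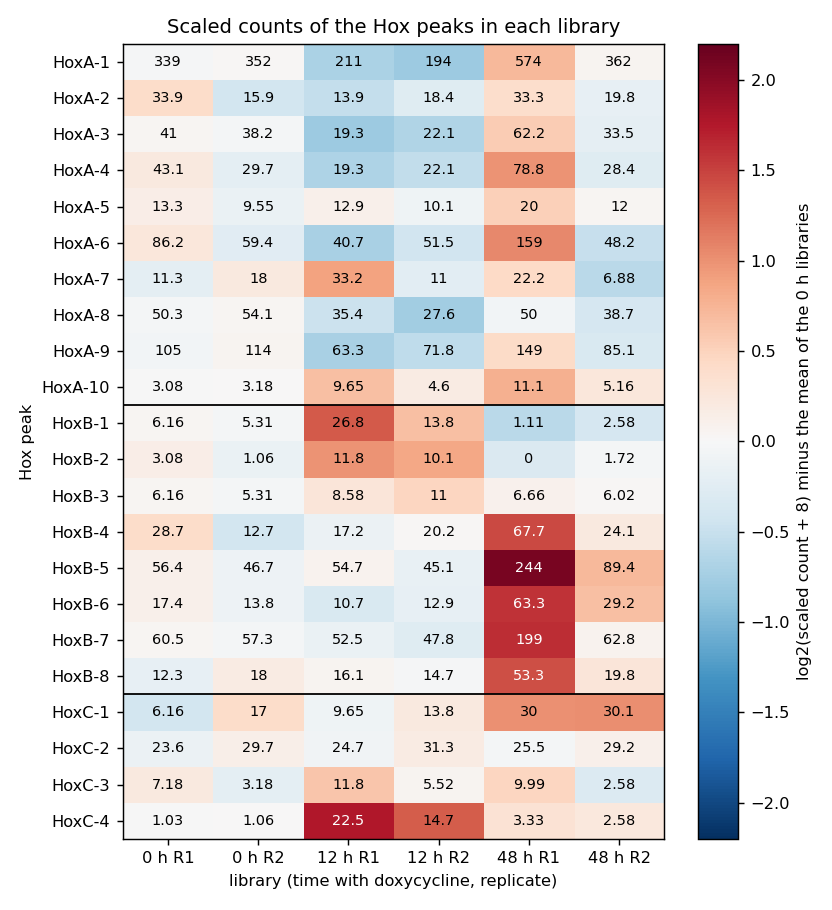
Scaled counts (numbers in the boxes) of the 22 Hox peaks in the 6 libraries, coloured by log2(scaled count + 8) minus the mean of the 0 h libraries. The column of 48 h R1 is red from HoxB-4 to HoxB-8 and over most of HoxA, while 48 h R2 lies between -0.59 and 0.24 in HoxA, and the 12 h columns are blue over most of HoxA.

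With HoxA-1 counted, HoxA had the most H3K27ac of the 4 clusters at every time. Without HoxA-1 its summed mean was 364 at 0 h and 243 at 12 h, against 176 and 187 for HoxB. At 48 h it was then 431, against 435 for HoxB. HoxA-1, of 3642 bp, was the strongest Hox peak, with 339 and 352 scaled counts in the 0 h libraries, 211 and 194 at 12 h, and 574 and 362 at 48 h. Both 12 h libraries were the lowest and both 48 h libraries the highest. The loss at 12 h was -0.77 ± 0.20 (edgeR adjusted p = 0.0121), and it was no longer called when any 1 of the 4 libraries was left out (adjusted p 0.0873 to 0.189). The difference between 48 h and 0 h was 0.43 ± 0.20 (adjusted p = 0.153), and the gain from 12 h to 48 h was 1.20 ± 0.20 (adjusted p = 0.000376), which remained called without each library in turn.

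HoxA-3, HoxA-4, HoxA-6 and HoxA-9, in the bodies of Hoxa2, Hoxa3 and Hoxa5, had lower values at 12 h that were not called one by one. HoxA-3 covers the start and coding sequence of Hoxa2, the gene that sets the identity of the second branchial arch. It had 41.0 and 38.2 scaled counts in the 0 h libraries, 19.3 and 22.1 at 12 h, and 62.2 and 33.5 at 48 h, with a difference of -0.93 ± 0.36 at 12 h (edgeR adjusted p = 0.0746). HoxA-9, over coding sequence of Hoxa5, a gene of the neck and lung, had 105 and 114 in the 0 h libraries, 63.3 and 71.8 at 12 h, and 149 and 85.1 at 48 h. In both peaks the 12 h libraries were the lowest pair, and 48 h R2 was below 0 h while R1 was above it. HoxA-9 differed by -0.69 ± 0.27 at 12 h (adjusted p = 0.0798).

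Both peaks gained from 12 h to 48 h, by 1.18 ± 0.35 for HoxA-3 (edgeR adjusted p = 0.0206) and by 0.78 ± 0.27 for HoxA-9 (adjusted p = 0.0432). HoxA-4, over coding sequence of Hoxa3, had 43.1 and 29.7 in the 0 h libraries, 19.3 and 22.1 at 12 h, and 78.8 and 28.4 at 48 h. HoxA-6, in an intron of Hoxa3 and over the antisense RNA Hoxaas3, had 86.2 and 59.4, then 40.7 and 51.5, and then 159 and 48.2. Both 12 h libraries were the lowest at HoxA-4, and at HoxA-6 48 h R2 lay between them. These 2 peaks gained from 12 h to 48 h as well, by 1.33 ± 0.40 and 1.13 ± 0.37 (adjusted p = 0.0221 and 0.0351). Without 48 h R1, HoxA-1 was the only HoxA peak still called in that comparison as a gain, and the others had differences of 0.69 (HoxA-3), 0.45 (HoxA-4), 0.05 (HoxA-6) and 0.33 (HoxA-9).

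Over the 10 HoxA peaks the median log2 fold change at 12 h was -0.67, and 8 of the 10 were below 0. Promoter peaks of all genes, 16421 in number, had a median of -0.38 in the same comparison, and all merged peaks one of -0.08. With the GC offset these medians were -0.32 for HoxA, -0.21 for promoter peaks and -0.03 for all peaks. HoxA peaks are rich in GC, and most of them overlap promoters. When the model held only the 4 libraries of 0 h and 12 h, 6 HoxA peaks were called lost at 12 h. The share of all merged peaks lost in that model was not counted, so the 6 cannot be set beside it. HoxA-7 and HoxA-8 lie over and just before the start of Hoxa4, a gene of the neck vertebrae, and HoxA-10 over Hoxa7, a trunk gene. HoxA-8 had 50.3 and 54.1 scaled counts in the 0 h libraries, 35.4 and 27.6 at 12 h, and 50.0 and 38.7 at 48 h, and HoxA-7 and HoxA-10 had 6.88 to 33.2 and 3.08 to 11.1. With all 6 libraries and library totals, the remaining HoxA peaks (HoxA-2, HoxA-5, HoxA-7, HoxA-8 and HoxA-10) were called in none of the 3 comparisons (edgeR adjusted p of 0.0958 to 0.995). With the GC offset HoxA-7 was called lost from 12 h to 48 h. HoxA-8 was among the peaks called lost at 12 h in the model of 4 libraries.

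Low peaks near Hoxc6 and Hoxb13 rose at 12 h and fell again by 48 h. HoxC-4, centred 1686 bp before the nearest start site of a coding transcript of Hoxc6 and inside the full annotated body of that gene, had 1 read in each 0 h library, 21 and 16 reads at 12 h, and 3 and 3 at 48 h. Both 12 h libraries stood clear of the other 4. The ratio of 12 h to 0 h was 17.6 (exact 95% interval 4.53 to 150, which covers counting error only), with an edgeR adjusted p of 0.00133, and the fall from 12 h to 48 h had a ratio of 0.159 (0.0547 to 0.379, adjusted p = 0.00759). DESeq2 gave this peak no adjusted p. Peaks were merged over all samples, so one this low at 0 h and 48 h may be listed because of its 12 h libraries. The interval and the adjusted p do not allow for such a selection. Its neighbour HoxC-3 had 2.58 to 11.8 scaled counts and was not called in any comparison.

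HoxB-1 and HoxB-2 lie 4316 and 3464 bp before the start of Hoxb13, a gene of the tail end, the prostate and the hindgut, and were singled out after their values were seen. HoxB-1 had 6 and 5 reads in the 0 h libraries, 25 and 15 at 12 h, and 1 and 3 at 48 h. HoxB-2 had 3 and 1, then 11 and 11, and then 0 and 2. In both, the 12 h libraries were the highest. HoxB-1 gained at 12 h by 1.78 ± 0.57 (edgeR adjusted p = 0.0355) and HoxB-2 was not called there (adjusted p = 0.0596). Both lost from 12 h to 48 h, with ratios of 0.0979 (exact 95% interval 0.0254 to 0.271) and 0.089 (0.0101 to 0.362) and adjusted p of 0.00231 and 0.0165. HoxB-3, on the other side of Hoxb13, was also highest in the 12 h libraries, with 8.58 and 11.04 scaled counts there and 5.31 to 6.66 in the other 4, and was not called. Both 12 h libraries were above the other 4 in 17.8% of all merged peaks. HoxB-1 and HoxB-2, low at 0 h and 48 h, may likewise be listed because of their 12 h libraries. Their intervals and adjusted p do not allow for this.

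HoxC-1 was a Hox peak whose 48 h libraries were alike. It lies 723 bp before the start of Hoxc13, a gene of hair and nails, and had 6.16 and 17.0 scaled counts in the 0 h libraries, 9.65 and 13.8 at 12 h, and 30.0 and 30.1 at 48 h. Its 48 h libraries were above the other 4, and the 0 h libraries were far apart. The gain at 48 h was 1.38 ± 0.43 (edgeR adjusted p = 0.0342), 1.38 without 48 h R1 (adjusted p = 0.0185) and 0.82 without 0 h R1 (adjusted p = 0.352). HoxC-2, over the first coding part of Hoxc13, had 23.6 and 29.7, 24.7 and 31.3, and 25.5 and 29.2 at the 3 times, and its groups overlapped throughout.

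**Figure D4:**
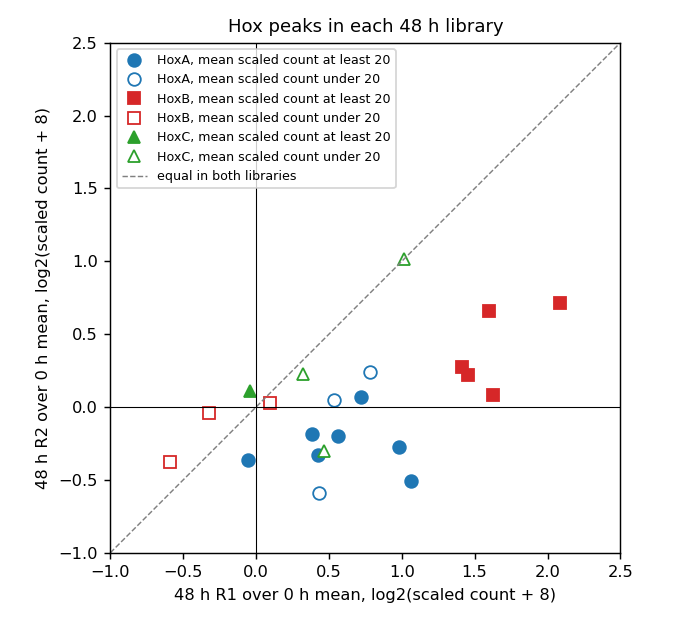
Each Hox peak in 48 h R1 (horizontal) and 48 h R2 (vertical), as log2(scaled count + 8) minus the mean of the 0 h libraries. The HoxB-4 to HoxB-8 squares lie right of 1.4 in R1 and between 0.08 and 0.71 in R2, most HoxA circles lie right of 0 in R1 and below 0 in R2, and HoxC-1 lies on the dashed line of equal values at 1.01 and 1.02.

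Summed over the cluster, HoxA had 726 and 694 scaled counts in the 0 h libraries, 459 and 433 at 12 h, and 1159 and 640 at 48 h. Its 12 h libraries were below the others, and the 48 h libraries lay on either side of 0 h. Without HoxA-1 the sums were 387 and 342, 248 and 239, and 585 and 278. The log2 ratio of the time point means was -0.67 at 12 h relative to 0 h and 0.34 at 48 h, and 48 h R2 alone was at -0.15. HoxB had 191 and 160 without doxycycline and 635 and 236 at 48 h, a log2 ratio of 1.31 that became 0.42 without 48 h R1, while its ratio at 12 h was 0.09. HoxC had 37.97 and 50.9 in the 0 h libraries, 68.6 and 65.3 at 12 h and 68.8 and 64.5 at 48 h, and HoxC-4 added most to the difference from 0 h at 12 h and HoxC-1 at 48 h. These sums were not tested. Those of HoxB and HoxC include low peaks that may be listed because of their 12 h libraries.

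The share of each cluster in the Hox signal differed between times and was not tested. HoxA-1 was counted in these shares and in the ratio below. HoxA held 76.3% of the scaled counts of the 22 peaks at 0 h, 63.7% at 12 h and 64.2% at 48 h. HoxB held 18.9%, 26.7% and 31.1%, and HoxC 4.78%, 9.57% and 4.76%. Within each library, the ratio of HoxB-4 to HoxB-8 over HoxA was 0.242 and 0.214 in the 0 h libraries, 0.329 and 0.325 at 12 h, and 0.541 and 0.352 at 48 h. It was thus higher in each later library than in both 0 h libraries. At 12 h both parts of the ratio were lower than at 0 h. The mean sum of HoxB-4 to HoxB-8 went from 162 to 146 and that of HoxA from 710 to 446.

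**Figure D5:**
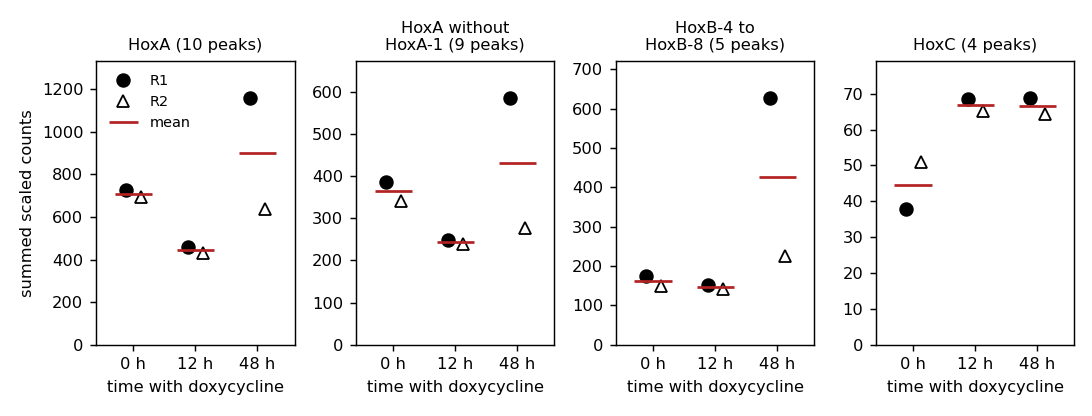
Summed scaled counts by time with doxycycline (horizontal), with R1 as filled circles, R2 as open triangles and the mean as a line, each panel with its own vertical axis from 0. HoxA is lowest at 12 h with and without HoxA-1, HoxB-4 to HoxB-8 reaches 627 in 48 h R1 and 225 in 48 h R2, and HoxC is higher in all 4 later libraries than at 0 h.

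By position along the clusters, the 13 peaks nearest to an anterior start site had a median log2 fold change of -0.40 at 12 h, 0.48 at 48 h relative to 0 h and 1.20 from 12 h to 48 h. The 5 posterior peaks had medians of 0.77, 0.05 and -0.63, and the 4 central peaks 0.91, 0.74 and -0.17. Over all merged peaks these medians were -0.08, -0.04 and -0.03. From 12 h to 48 h, 9 of the 13 anterior peaks gained and the other 4 were not called, while 1 posterior peak gained and 2 lost, where 10.7% of all merged peaks gained and 8.43% lost. The anterior gains numbered 3 without 48 h R1, 2 with either 12 h library left out and 4 with DESeq2, which gave no adjusted p for HoxB-8. Of the 3 posterior calls, the gain of HoxC-1 and the loss of HoxB-1 held without 48 h R1, none held without 12 h R1, and the loss of HoxB-1 held without 12 h R2. Of the anterior peaks, 10 of 13 were promoter peaks, and of the posterior peaks 2 of 5. Over all genes, promoter peaks had medians of -0.38 at 12 h and 0.44 from 12 h to 48 h, and other peaks 0.08 and -0.20. The part of this class in the difference by position was not tested. Anterior peaks summed to 793 and 726 scaled counts in the 0 h libraries, 537 and 498 at 12 h, and 1627 and 775 at 48 h, and posterior peaks to 45.2 and 58.4, 81.5 and 80.0, and 63.3 and 69.6. The groups of 0 h and 12 h did not overlap in either class, in opposite directions. Those of the central peaks did not overlap either, with 116 and 121 at 0 h and 107 and 96.6 at 12 h. Taken singly, 30.7% of all merged peaks were higher without overlap at 12 h and 35.1% lower. The posterior rise lay at Hoxb13, with means of 13.5 at 0 h and 41.1 at 12 h, while Hoxc13 had 38.2 and 39.7. The low posterior peaks HoxB-1 and HoxB-2 and the central peak HoxC-4 may be listed because of their 12 h libraries. The medians, calls and sums by position do not allow for this.

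Compared with other merged peaks, the Hox peaks were GC-rich and of modest height. Their median GC content was 57.01% (range 40.2% to 81.8%), against 50.2% for all merged peaks, and 15 of the 22 overlapped the 2 kb on either side of the start of a protein-coding transcript, against 24.6% of all. Per kb of peak, the median scaled count was 37.0, against 44.8 for all peaks, and 7 of the 22 were above that median. HoxA-1 was the highest per kb, at 93.0, and HoxA-9 had 62.8, HoxC-2 57.3 and HoxB-5 39.9. The 5 peaks from HoxB-4 to HoxB-8 ranged from 31.8 to 47.8 per kb over all libraries. The low peaks HoxB-1, HoxB-2, HoxB-3, HoxC-3, HoxC-4 and HoxA-10 had 18.8 to 25.6 per kb, where at most 5.93% of merged peaks were lower.

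Values per gene, with the reads of all peaks in its window summed, were fitted for the 13 genes with a peak. At 12 h relative to 0 h, Hoxb13, Hoxc5 and Hoxc6 gained and Hoxa2 lost, where 6.62% of the 15390 protein-coding genes with a peak gained and 29.1% lost (edgeR). Hoxa2 had a mean of 410 scaled counts at 0 h, of which HoxA-1, outside its body, gave 346. Its other peaks, HoxA-2 and HoxA-3, were lower at 12 h but not called (edgeR adjusted p = 0.323 and 0.0746). At 48 h relative to 0 h Hoxb3 gained, against 6.21% of genes, and 0 Hox genes lost, against 4.72%. Losses were also 0 at an unadjusted p under 0.05 by edgeR and DESeq2, and without 48 h R1 edgeR called Hoxa3 lost. From 12 h to 48 h, 6 gained (Hoxa2, Hoxa3, Hoxa5, Hoxa6, Hoxb2 and Hoxb3), against 39.0% of genes, and 3 lost (Hoxb13, Hoxc5 and Hoxc6), against 6.97%. Hoxb3 had 163 and 131 scaled counts in the 0 h libraries, 135 and 126 at 12 h, and 574 and 206 at 48 h, a gain of 1.39 ± 0.37 (adjusted p = 0.0331).

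Gene values depend on the scaling. The median of all genes was -0.31 at 12 h relative to 0 h with library totals and -0.02 with TMM factors, and 0.34 and 0.04 from 12 h to 48 h. Gains made up 18.5% of called genes at 12 h with library totals, 72.9% with TMM factors and 85.7% with DESeq2, and 84.8%, 41.0% and 28.0% from 12 h to 48 h. Relative to the median of all genes, Hoxa2 was at -0.47 at 12 h, Hoxb13 at 1.89 and Hoxc5 and Hoxc6 at 2.40. The values of Hoxb13, Hoxc5 and Hoxc6 rest on low peaks that may be listed because of their 12 h libraries. With TMM factors, Hoxa2 was no longer called lost at 12 h (adjusted p = 0.0613), and Hoxa3, Hoxa5 and Hoxa6 were no longer called gained from 12 h to 48 h. The calls of Hoxb13, Hoxc5 and Hoxc6 held under both scalings and with DESeq2, but no Hox gene was called at 12 h with any 1 of the 4 libraries left out (edgeR), or from 12 h to 48 h without a 12 h library. The gain of Hoxb3 at 48 h was not called without a 0 h library and was called with either 48 h library left out. DESeq2 did not call Hoxb3 there (adjusted p = 0.0989) and called Hoxb2 gained (adjusted p = 0.00990). With only the 4 libraries of 0 h and 48 h in the model, edgeR called no Hox gene at 48 h.

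Other genes of the Hox pathway were read from lists, by the same sums per gene. Of all 15390 genes with a peak, edgeR called 6.62% gained and 29.1% lost at 12 h relative to 0 h. At 48 h relative to 0 h these shares were 6.21% and 4.72%. DESeq2 called 1566 gained and 262 lost at 12 h, and 850 and 659 at 48 h. The counts of every list below stand beside these shares. Of the 9 TALE genes, the Pbx, Meis and Pknox partners of Hox proteins, all had peaks, and 3 gained and 0 lost at 48 h relative to 0 h, with a median of 0.46 against 0.03 for all genes. At an unadjusted p under 0.05, 1 was lower by edgeR and by DESeq2. At 12 h, 0 gained and 3 lost by edgeR (2 and 3 at an unadjusted p under 0.05), and 2 gained and 1 lost by DESeq2 with its own scaling. Meis1 had 396 and 347 scaled counts in the 0 h libraries, 526 and 504 at 12 h, and 1246 and 841 at 48 h, a gain of 1.49 ± 0.17 (edgeR adjusted p = 0.000327). Its 48 h libraries were both above all others. Pknox2 gained by 1.03 ± 0.20 (adjusted p = 0.00778) and Meis2 by 1.01 ± 0.22 (adjusted p = 0.0139), and in both genes 48 h R1 was again the highest library.

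Of the 6 Cdx and ParaHox genes, 3 had a peak, and all 3 gained at 12 h by edgeR, against 6.62% of all genes. DESeq2 called 1 of them. At 48 h relative to 0 h, 0 were called by either tool, also at an unadjusted p under 0.05. The 3 genes are named here after their values were seen. Cdx1 had 23.6 and 31.8 scaled counts in the 0 h libraries, 48.2 and 56.1 at 12 h, and 31.1 and 29.2 at 48 h. Cdx2, which with Cdx1 drives Hox genes of the trunk, had 1.03 and 2.12, 7.51 and 16.6, and 6.66 and 3.44. The peak of Gsx1 was listed at 0 and 2.12, 7.51 and 12.9, and 6.66 and 3.44. All 3 genes were highest in the 12 h libraries, as were HoxB-1, HoxB-2, HoxB-3 and HoxC-4. The low peaks of Cdx2 and Gsx1 may also be listed because of their 12 h libraries, which the calls do not allow for.

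In the retinoic acid pathway, 13 of 17 genes had a peak, and 1 gained and 1 lost at 48 h, with a median of 0.03. Rarb, a receptor of retinoic acid and itself one of its targets, had 63.6 and 59.4 scaled counts in the 0 h libraries, 272 and 256 at 12 h, and 114 and 172 at 48 h. It was highest at 12 h and remained above 0 h at 48 h, with a gain of 1.23 ± 0.23 (edgeR adjusted p = 0.00663). Rarg, another receptor of this kind, lost 0.56 on the log2 scale, from 4397 ± 245 scaled counts (SD, n = 2) at 0 h to 2986 ± 57.4 at 48 h (adjusted p = 0.0031). In this list 2 genes gained and 1 lost at 12 h, against 6.62% and 29.1% of all genes.

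All 31 Polycomb genes had peaks, and 2 gained and 2 lost at 48 h, against 6.21% and 4.72% of all genes. Their median was -0.01. Phc2, a subunit of Polycomb repressive complex 1, rose by 1.56 ± 0.16 (edgeR adjusted p = 0.000181) and Ezh1, which methylates lysine 27 like its relative Ezh2, by 1.04 ± 0.13 (adjusted p = 0.000554). Epop, a partner of Polycomb repressive complex 2, was lower by 0.54 ± 0.12 (adjusted p = 0.0135, a log2 fold change of -0.54). At 12 h, 2 of the 31 gained and 12 lost, where 6.62% of all genes gained and 29.1% lost. The median of all genes was -0.31, and DESeq2 with its own scaling called 6 and 1 of the Polycomb genes. Of the 12 Trithorax genes, demethylases and acetyltransferases, 0 gained by edgeR and by DESeq2 (1 and 0 at an unadjusted p under 0.05) and 1 lost at 48 h by edgeR, which was Rbbp5, a core part of the complexes that methylate lysine 4, at -0.45 ± 0.11 (adjusted p = 0.0272).

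Hindbrain and posterior patterning genes had peaks in 9 of 12, and 2 gained and 0 lost at 48 h by edgeR and DESeq2 (0 lower at an unadjusted p under 0.05), with a median of 0.67. These were Nr6a1, a receptor that times the use of trunk Hox genes, with 1.06 ± 0.12 (edgeR adjusted p = 0.00027), and Lin28b, an RNA-binding protein of early development, with 0.73 ± 0.10 (adjusted p = 0.00122). Nr6a1 had 1058 and 869 scaled counts at 0 h and 2061 and 1962 at 48 h, and its 48 h replicates were close, unlike those of the HoxB peaks. Among 15 genes that flank the clusters, 12 had a peak, 0 gained at 48 h by edgeR and DESeq2, also at an unadjusted p under 0.05, and 1 lost, which was Ttll6 near HoxB, at -0.84 ± 0.18 (adjusted p = 0.0122). Its 48 h libraries had 119 and 138 scaled counts and those of 0 h 207 and 255.

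Markers of the cells in the culture were counted beside these values, with the same shares of all genes for comparison. Of the 11 genes of pluripotent cells, 0 gained and 4 lost at 48 h by edgeR (0 and 5 by DESeq2, and 0 higher at an unadjusted p under 0.05), and 1 gained and 1 lost at 12 h. Of 15 genes of fibroblasts, the feeder cells on which the line is kept, 5 had a peak and 10 had none (Col1a2, Col3a1, Thy1, Twist2, Prrx1, Pdgfra, Fap, S100a4, Dcn and Postn). The 5 summed to 416 and 422 scaled counts in the 0 h libraries, 325 and 355 at 12 h, and 466 and 325 at 48 h, with 1 gained (Pdgfrb) and 1 lost (Col1a1) at 48 h. This sum was highest in 48 h R1, the library with the highest HoxB sums, and its part in the HoxB values was not tested.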

How the data were processed

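H3K27ac ChIP-seq libraries of A2lox-NeuroD1 cells (line A2Lox) at 0 h, 12 h and 48 h of doxycycline were examined. The authors used Bowtie2 (local alignment, mm10) and SAMtools 0.1.19, called peaks with MACS2 against Input, merged peaks over samples and replicates and deposited raw read counts per merged peak from QuasR. Because peaks were pooled, presence per library is not known. The Input library, NeuroD1 binding and RNA were not analysed here. One HoxA gene is not among the members and is not reported here.

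Members were matched by symbol to GENCODE M21, and sequences were read from the GRCm38 assembly. The members and gene lists were chosen with earlier results of these data known. Changes were tested with edgeR 4.0.16 (R 4.3.3) by its quasi-likelihood test over all 66841 peaks, and separately over 15390 protein-coding genes with summed peaks, on all 6 libraries with library totals as offset, 3 residual degrees of freedom and Benjamini-Hochberg adjusted p under 0.05. The biological coefficient of variation was 14.9% for peaks and 10.9% for genes. Alternatives were TMM factors, DESeq2 1.42.0, a minimum of 10 counts in 2 libraries, a replicate block, only the 4 libraries compared, a GC offset (which leaves 66783 peaks), windows of the gene body alone or plus 10 kb, other class limits, and each library left out. HoxA without HoxA-1 was added after seeing the data. The set HoxB-4 to HoxB-8, which leaves out the peaks at Hoxb13, was not among the planned sets. Values in every library are given for the 3 highest peaks of each cluster and for called peaks with a mean scaled count of at least 20, up to 12 by size of change, and up to 3 genes of each other list called at 48 h relative to 0 h are named. Of the genes listed beside the clusters, Prac1 was not found by that name.

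On simulated data for 48 h against 0 h over 66841 peaks, edgeR recovered 29 of 103 peaks changed 2-fold and 83 of 97 changed 4-fold, with 10 false calls, and DESeq2 16 and 57 with 0 false calls. Over 15390 genes, edgeR recovered 92 of 105 and 94 of 95, with 7 false calls. All simulated libraries had the same coefficient of variation, 14.9% for peaks and 10.9% for genes. The wider spread between the real 48 h replicates was not simulated, so recovery and false calls in the data may differ. Sums, ratios, intervals and plots were made with pandas 2.3.3, numpy 2.4.6, scipy 1.17.1, pysam 0.24.0 and matplotlib 3.10.9 in Python 3.11.15.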

Additional observations from a re-analysis of the deposited data

Results flagged for a closer look

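At 14 Hox peaks the change from 0 h differed between 12 h and 48 h, tested as the difference between 48 h and 12 h with edgeR (both changes share the 0 h libraries). In HoxA the log2 difference was 1.20 at HoxA-1, 1.18 at HoxA-3, 1.33 at HoxA-4, 1.13 at HoxA-6 and 0.78 at HoxA-9. In HoxB it was 1.25 at HoxB-4, 1.73 at HoxB-5, 1.92 at HoxB-6, 1.36 at HoxB-7 and 1.20 at HoxB-8, and -3.30 and -3.35 at HoxB-1 and HoxB-2, before Hoxb13. In HoxC it was 1.33 at HoxC-1, before Hoxc13, and -2.61 at HoxC-4, near Hoxc6. The low peaks HoxB-1, HoxB-2 and HoxC-4 may be listed because of their 12 h libraries, which the test does not allow for. Without 48 h R1 the call held at HoxA-1, HoxB-1, HoxB-5, HoxB-6, HoxC-1 and HoxC-4, and without 48 h R2 at all 14. It held at HoxA-1 and HoxB-5 without 12 h R1, at HoxA-1, HoxB-1, HoxB-6 and HoxC-4 without 12 h R2, and at HoxA-1, HoxA-4, HoxB-5 and HoxB-6 with DESeq2, which gave no adjusted p for HoxB-1, HoxB-2, HoxB-8, HoxC-1 and HoxC-4.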

How the results depend on the processing

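Counts of called Hox peaks moved with the tool, the libraries and the window. At 12 h relative to 0 h, 3 were called, against 1 with DESeq2, 9 with only the 4 libraries compared and 1 with the gene body alone. At 48 h relative to 0 h, 4 were called, against 0 with DESeq2, 8 with the GC offset and 2 with the gene body alone. From 12 h to 48 h, 14 were called, against 4 with DESeq2 and 8 with the gene body alone. Calls over all 66841 peaks moved too, from 10666, 9365 and 12796 in these comparisons to 5293, 4622 and 7465 with DESeq2. With the GC offset, 13278 of 66783 peaks were called at 48 h relative to 0 h. Calls over all peaks were not counted for only the 4 libraries compared. Called Hox genes numbered 4, 1 and 9 in these comparisons, against 7, 0 and 4 with only the 4 libraries compared. There were 2 at 48 h with TMM factors and 5 from 12 h to 48 h with DESeq2. Over all 15390 genes, 1683 were called at 48 h relative to 0 h, and 1847 with TMM factors. From 12 h to 48 h, 7075 of them were called, and 2706 with DESeq2. With the gene body alone the HoxC log2 ratio was 0.16 at 48 h relative to 0 h and -0.59 from 12 h to 48 h. The cause was not tested.

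Leaving out 1 library gave 1 to 1, 1 to 9 and 2 to 15 called peaks and 0 to 0, 0 to 5 and 0 to 8 called genes in these comparisons, with the single library left in a group assumed to vary like the others. The summed log2 ratios ranged, in the same order, from -0.71 to -0.63, -0.15 to 0.71 and 0.52 to 1.38 for HoxA, from -0.03 to 0.22, 0.42 to 1.85 and 0.33 to 1.76 for HoxB, and from 0.39 to 0.82, 0.39 to 0.81 and -0.05 to 0.04 for HoxC.

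Replicate numbers did not pair the libraries (correlations of R1 deviations of -0.036, -0.050 and 0.078). With the replicate block, 3, 6 and 14 peaks and 4, 2 and 10 genes were called, the block adding HoxB-4 and HoxB-8 at 48 h relative to 0 h.

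Some differences that were not called changed sign. At 12 h relative to 0 h, the GC offset gave HoxB-4 0.27, HoxB-5 0.12, HoxB-7 0.11 and HoxC-1 -0.013, and TMM factors gave HoxB-5 0.011. With 1 library left out, the difference at 48 h relative to 0 h ranged from -0.24 to 0.65 for HoxA-3, -0.36 to 1.11 for HoxA-4, -0.60 to 1.12 for HoxA-6, -0.36 to 0.45 for HoxA-9 and -0.11 to 0.22 for HoxC-2, and the 4 HoxA peaks were lowest without 48 h R1. At 12 h relative to 0 h it ranged from -0.61 to 0.55 for HoxB-4, -0.19 to 0.090 for HoxB-5, -0.23 to 0.32 for HoxB-8, -0.52 to 0.93 for HoxC-1 and -0.11 to 0.25 for HoxC-2, and from 12 h to 48 h from -0.18 to 0.16 for HoxC-2. Over single peaks, 198 values kept direction and call under the alternatives other than left-out libraries, 5 changed sign, 15 lost the call and 11 gained it. With libraries left out, 96 kept both, 17 changed sign, 38 lost the call and 5 gained it. With 2 reads in all at 48 h for HoxB-2 and at 0 h for HoxC-4, depth limits what could be called at such peaks.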

Other observations

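Peaks outside the member windows lay within 100 kb of 3 of the 4 clusters. On the Hoxa2 side of HoxA, a wide peak on chromosome 6 from 52101679 to 52108021 had 896 and 867 reads in the 0 h libraries, 1379 and 1683 at 12 h, and 740 and 1280 at 48 h. It gained at 12 h by 0.72 on the log2 scale (edgeR adjusted p = 0.00265), when HoxA-1 lost, and lost from 12 h to 48 h by 0.65 (adjusted p = 0.00548, a log2 fold change of -0.65). Its neighbour from 52074391 to 52083239 had 1075 and 1001, 1496 and 1867, and 570 and 1203 reads, and gained at 12 h by 0.62 (adjusted p = 0.0173).

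Between Hoxb13 and Hoxb9, 3 merged peaks lay in the HoxB span outside every member window. From 12 h to 48 h, the one from 96203495 to 96203869 had a log2 fold change of -2.11 (edgeR adjusted p = 0.0117). For the one from 96252698 to 96253165 it was -1.36 (adjusted p = 0.0355). The one between them was not called (-0.69, adjusted p = 0.0537). Both called peaks were low, with 18 to 28 reads per 12 h library and 4 to 13 in each other library. Like HoxB-1 and HoxB-2, they may be listed because of their 12 h libraries, which the test does not allow for. Beside HoxD, the peak on chromosome 2 from 74578161 to 74579692 had 230 and 197 reads in the 0 h libraries, 135 and 137 at 12 h, and 230 and 239 at 48 h. It lost at 12 h (-0.72, adjusted p = 0.0202) and gained from 12 h to 48 h (0.77, adjusted p = 0.0125).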
